A study of Mus musculus with 3 samples.

Results

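The genes described here are 10 mouse genes for proteins that sperm use to bind to and fuse with the egg: *Izumo1*, *Izumo2*, *Izumo3*, *Izumo4*, *Spam1*, *Dcst1*, *Dcst2*, *Zp3r*, *Zpbp* and *Zpbp2*. They were chosen by symbol, and all 10 were found among the 22843 gene rows of the deposited single-cell RNA-seq table. The cells came from testes of ICR mice, an outbred strain, microinjected at postnatal day 21 with an AAV9 virus that carries a short hairpin RNA and a red fluorescent protein, RFP. In each mouse the testis on one side received a control hairpin (shCtrl) and the testis on the other side a hairpin against *Gm4665*, a long noncoding RNA. There were 3 libraries: shCtrl, Gm4665 shRNA1 (hairpin 1) and Gm4665 shRNA2 (hairpin 2). Somatic cells had been removed and RFP-positive germ cells sorted, so control cells carried virus too. The labels do not state how long after injection the cells were taken.

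A mouse sperm meets the cumulus matrix and the zona pellucida, the coats around the egg, before its membrane fuses with that of the egg. IZUMO1, a membrane protein exposed after the acrosome reaction, binds the egg receptor JUNO (gene *Izumo1r*), and fusion also needs DCST1 and DCST2. SPAM1 is a hyaluronidase of the sperm surface and acrosome, and ZP3R, ZPBP and ZPBP2 are acrosomal proteins linked to zona binding and acrosome formation. Their genes are transcribed in the testis, before and during the remodelling of the round spermatid.

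Each group was 1 library of cells from 3 mice per condition, with no map from cells to mice, so no difference between libraries has a replicate check and no p-value is given. The control library held 1418 cells and 40405313 unique molecular identifiers (UMIs, the count of captured RNA molecules), the hairpin 1 library 1732 cells and 38330044 UMIs, and the hairpin 2 library 1873 cells and 44640351 UMIs. Median depth was 19366, 14667.5 and 16518 UMIs a cell in that order. Values are UMIs of a gene per 1000000 UMIs of the summed cells (CPM), given in the order control, hairpin 1, hairpin 2. Intervals are 95% Poisson or ratio intervals and cover counting error only. The protocol counts 3′ ends, so a level is not divided by transcript length. The target *Gm4665* stood at 311, 52.8 and 79.1 CPM, lower with both hairpins.

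The libraries differed in their makeup. Clustering without the 10 genes and *Gm4665* gave 17 clusters, 11 of which were placed from marker lists in 5 classes of germ cells. Elongating and condensing spermatids made up 45.9%, 37.7% and 25.4% of the cells, and pachytene to diplotene spermatocytes 5.99%, 11.9% and 11.9%. Protamine and transition protein RNA took 12.1%, 9.24% and 8.39% of all UMIs. Despite the sort, 21, 96 and 183 cells were non-germ cells. The summed level of the antibody-lineage list (4 of 6 markers found) was 20.1, 614 and 1124 CPM, and that of the 7 other leukocyte markers 210, 500 and 885 CPM. All 12 round spermatid markers passed the filter on low values, and 9 of them were higher in the cells so named than in the other cells. Of the 11 leptotene to zygotene markers 8 were higher in that class, cluster 13, and *Prdm9*, *Scml1* and *M1ap* were not. *Piwil1*, from the pachytene list, was among its leading genes. Unnamed cluster 10 had 10 of the 11 raised, so the name leptotene to zygotene is uncertain. None of the 10 Sertoli markers was at 0 in every library (summed 123, 44.0 and 73.5 CPM), and a cluster with both Sertoli and condensing spermatid markers was kept apart as mixed.

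The 10 genes lie on 7 chromosomes of the mm10 assembly (GENCODE vM21). *Izumo1* (chr7:45621811-45628823, plus strand) and *Izumo2* (chr7:44708742-44719844, plus) share a chromosome, as do *Zpbp* (chr11:11279626-11462408, minus) and *Zpbp2* (chr11:98551097-98558665, plus). *Izumo3* lies at chr4:92144329-92147234 (minus), *Izumo4* at chr10:80702184-80705373 (plus), *Spam1* at chr6:24791188-24801048 (plus) and *Zp3r* at chr1:130576713-130629621 (minus). All 10 are protein-coding.

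*Dcst1* (chr3:89350219-89365253, minus) and *Dcst2* (chr3:89361975-89377549, plus) run in opposite directions, and in GENCODE their spans overlap with 0 shared exon bases. Their RefSeq starts on GRCm38.p6 have 65 bases between them, so the promoter window of *Dcst2* holds both starts. That window is shown, with the bases between the starts in capitals. It reaches less far upstream of *Dcst1* than the window of *Dcst1* itself. It is chr3:89365069-89365368, plus strand:
Dcst1_Dcst2: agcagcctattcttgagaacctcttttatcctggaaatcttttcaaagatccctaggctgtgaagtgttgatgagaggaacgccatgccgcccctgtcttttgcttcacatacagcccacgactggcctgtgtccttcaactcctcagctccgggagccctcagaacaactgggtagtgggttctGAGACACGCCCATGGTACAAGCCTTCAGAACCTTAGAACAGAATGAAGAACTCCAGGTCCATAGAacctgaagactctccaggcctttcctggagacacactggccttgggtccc

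Promoter windows of 250 bases before to 50 after the start were held for 9 of the 10 genes in the RefSeq table. They were searched on both strands for TGACGTCA, the full cAMP response element bound by factors of the CREM family that act in spermatids, and for its shorter form TGACG, which every full match also holds. The full element was in 1 of 9 windows, that of *Izumo1*, and in 1.79% of all 32851 windows. TGACG was in 2 of 9, *Izumo1* and *Zpbp2*, and in 20.8% of all windows. GTTGCC, a core of the motif bound by RFX factors, was in 1 of 9 (*Zp3r*) and in 12.5% of all. These matches describe letters only. The windows of *Izumo1*, which peaked in round spermatids, and *Zpbp2*, which peaked in pachytene cells, are shown with the match in capitals and differ in GC content (50.7% and 64.0%). They are chr7:45621561-45621860 and chr11:98550847-98551146, both plus strand:
Izumo1: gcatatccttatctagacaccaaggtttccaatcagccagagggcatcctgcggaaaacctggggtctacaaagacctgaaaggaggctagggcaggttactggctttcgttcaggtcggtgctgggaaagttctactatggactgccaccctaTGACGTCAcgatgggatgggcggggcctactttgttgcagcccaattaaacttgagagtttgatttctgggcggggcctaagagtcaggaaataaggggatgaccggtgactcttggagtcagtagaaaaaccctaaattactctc
Zpbp2: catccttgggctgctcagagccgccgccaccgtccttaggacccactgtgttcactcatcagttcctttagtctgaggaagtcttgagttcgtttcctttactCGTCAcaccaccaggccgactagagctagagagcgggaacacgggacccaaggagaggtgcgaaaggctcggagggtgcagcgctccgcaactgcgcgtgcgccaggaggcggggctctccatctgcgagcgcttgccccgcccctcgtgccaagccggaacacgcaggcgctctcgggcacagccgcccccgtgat

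Over all cells, none of the 10 genes was 2-fold higher or lower with both hairpins. All 10 passed the filter on low values (a mean of 10 CPM and 30 UMIs). Among the 7068 genes compared, 1.23% were at least 2-fold higher with both hairpins and 0.495% at least 2-fold lower. At this depth small differences also pass counting error: ratio intervals lay above the control with both hairpins for 4 of the 10 genes and 53.6% of all genes, and below it for 2 of the 10 and 24.1% of all. The median log2 difference of the 10 genes was 0.05 with hairpin 1 and -0.23 with hairpin 2, beside 0.23 and 0.25 over all genes compared. Scaling to TMM factors moved the all-gene medians to -0.04 and -0.09 and those of the 10 genes to -0.22 and -0.57. In bulk sums of this kind, fewer cells of a type and less RNA per cell cannot be told apart.

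**Figure D1:**
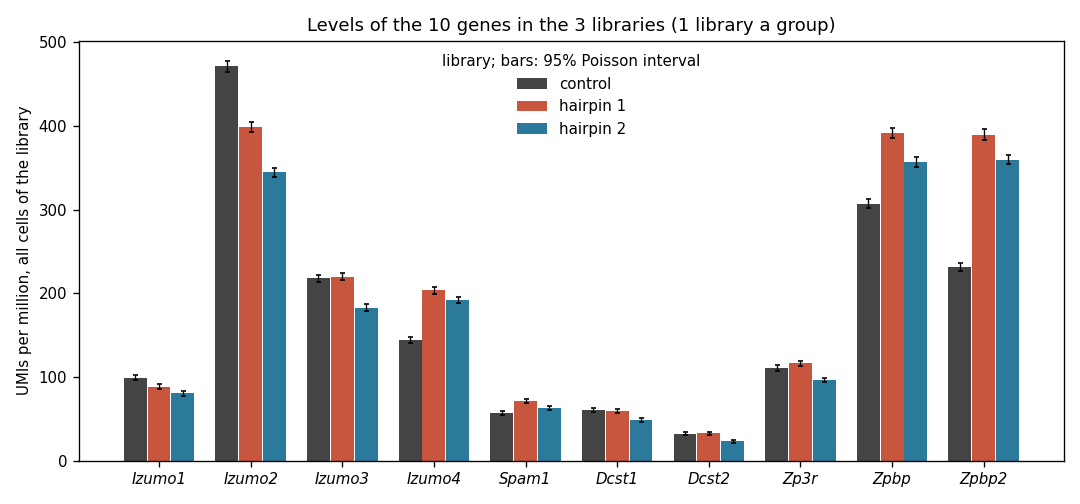
Levels of the 10 genes over all cells, in CPM, with a bar for each library and its 95% Poisson interval. *Zpbp2*, *Zpbp* and *Izumo4* stand higher in both hairpin libraries than in the control (232, 390 and 360 CPM for *Zpbp2*), and *Izumo2* lower (471, 399 and 344 CPM), by total-UMI scaling; with TMM factors *Zpbp* turns lower with hairpin 2.

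The genes followed at least 3 courses through the germ line. *Zpbp2* and *Izumo4* were highest in pachytene to diplotene spermatocytes. *Spam1*, *Dcst1*, *Dcst2* and *Zp3r* were highest in cluster 8 of the round spermatids, where *Zpbp* was highest too, although it was already high in pachytene cells. *Izumo1* was highest in cluster 1 and *Izumo3* in cluster 3, also round spermatids, and *Izumo2* went on into elongating spermatids. Cluster 8 held 26, 120 and 45 cells and had the lowest median depth of the round spermatid clusters (9316 UMIs). Clusters of a class have no fixed order in time.

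**Figure D2:**
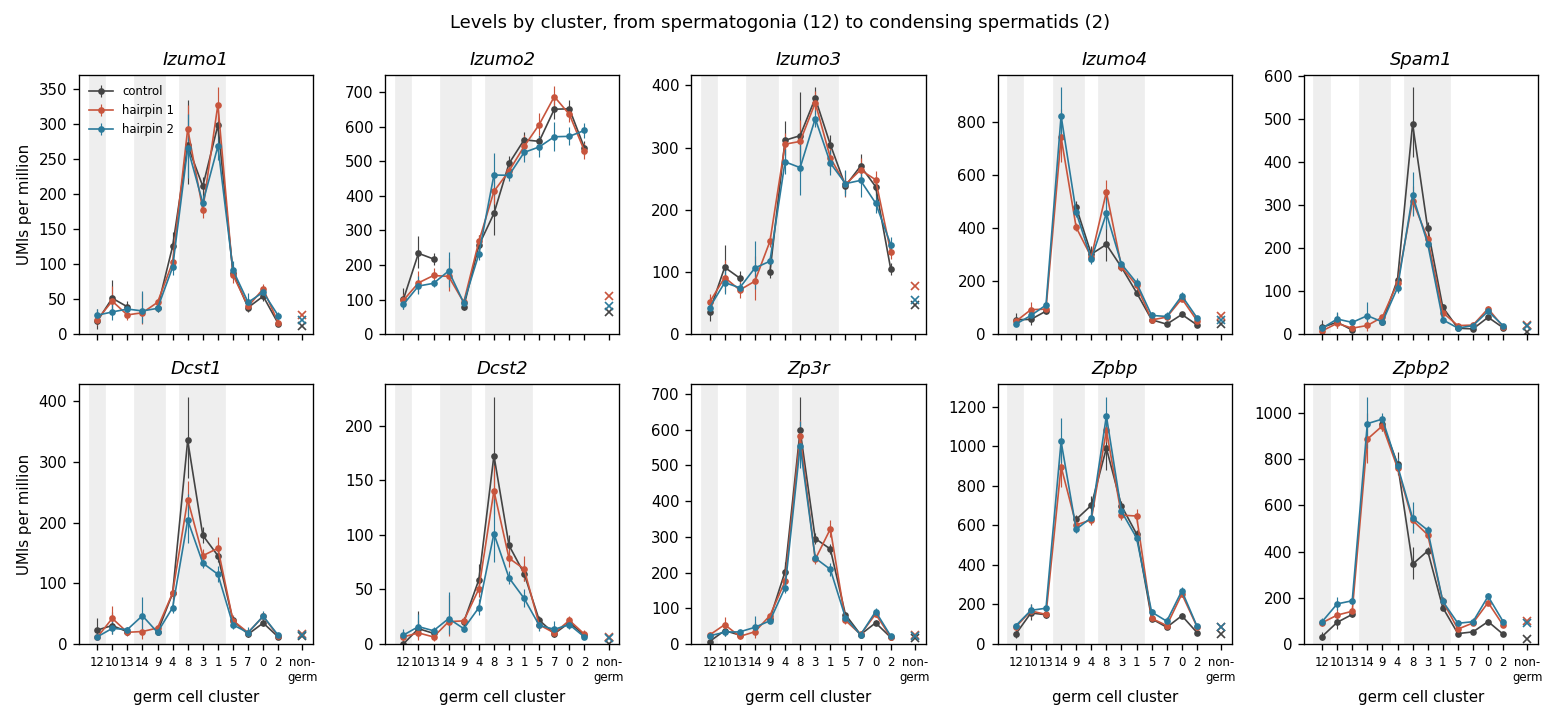
Levels in CPM by germ cell cluster, ordered by class, with a line for each library, 95% Poisson intervals, and crosses for the non-germ cells of the library. Grey bands mark spermatogonia (12), pachytene to diplotene cells (14, 9) and round spermatids (8, 3, 1); clusters 10 and 4 are unnamed, 13 is leptotene to zygotene, and 5, 7, 0 and 2 are elongating and condensing; a library with under 20 cells in a cluster has no point. *Zpbp2* falls from 954 CPM in cluster 9 of the control to 41.9 CPM in cluster 2, while *Izumo2* rises from 79.0 to 538 CPM.

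*Izumo1*, the membrane protein that binds JUNO, was a round spermatid transcript in all 3 libraries. Over all cells it stood at 98.7, 88.0 and 80.1 CPM, highest in the control. Relative to the control this was 0.891-fold (0.851 to 0.933) with hairpin 1 and 0.812-fold (0.776 to 0.849) with hairpin 2. Its highest level was in cluster 1, at 298, 327 and 268 CPM, and cluster 8 (269, 293 and 266 CPM) overlapped it within counting error. In condensing cluster 2 it was down to 15.1, 16.5 and 26.4 CPM. Round spermatids held 61.5%, 53.4% and 58.0% of its UMIs.

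Within round spermatids *Izumo1* stood at 257, 236 and 213 CPM, lower with both hairpins by less than a 2-fold margin. With clusters weighted to the control's mix, the log2 differences in this class went from -0.12 and -0.27 to 0.0020 and -0.15. Over all cells the same weighting gave 0.01 with hairpin 1 and -0.07 with hairpin 2, in place of -0.16 and -0.30. The annotation gives *Izumo1* 654 exon bases in common with *Rasip1* on the same strand, and *Rasip1* itself was counted at 1.26, 3.05 and 2.24 CPM.

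*Izumo2* encodes another immunoglobulin-like IZUMO protein and was the most abundant member in the control and hairpin 1 libraries, at 471, 399 and 344 CPM; with hairpin 2 *Zpbp2* and *Zpbp* stood above it. It was lower with both hairpins, at 0.846-fold (0.828 to 0.864) and 0.731-fold (0.715 to 0.746). The class with most of its UMIs, elongating and condensing spermatids (57.6%, 56.0% and 42.7%), was also the class whose share of cells fell furthest. Within that class it stood at 589, 614 and 573 CPM. With the classes weighted to the control's mix, the log2 differences over all cells went from -0.24 and -0.45 to 0.0042 and -0.08.

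In spermatocytes *Izumo2* was lower with both hairpins in leptotene to zygotene cells (217, 170 and 147 CPM) and higher with both in pachytene to diplotene cells (79.1, 95.3 and 94.9 CPM). The non-germ cells of the same libraries held 63.8, 109 and 82.5 CPM, so the pachytene level was close to that of cells that should lack the transcript. With that level subtracted, the hairpin 2 log2 difference in pachytene to diplotene cells went from 0.26 to -0.27, and hairpin 1 gave no value. The part of the non-germ level in the difference was not tested.

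*Izumo3*, whose protein is needed for the shape of the acrosome in mice, stood at 218, 220 and 183 CPM over all cells. The hairpin 1 library was level with the control (1.01-fold, 0.980 to 1.04), and the hairpin 2 library was lower (0.839-fold, 0.814 to 0.865). It was highest in cluster 3 of the round spermatids at 379, 372 and 347 CPM and kept 208, 221 and 194 CPM in elongating spermatids. In round spermatids as a class the values were 340, 338 and 324 CPM, and both ratio intervals contained 1. Pachytene to diplotene cells held 99.9, 147 and 117 CPM, higher with both hairpins. Leptotene to zygotene cells held 90.2, 71.1 and 74.7 CPM, lower with both. The non-germ cells held 47.2, 76.9 and 55.2 CPM of *Izumo3*. The hairpin 1 level in leptotene to zygotene cells thus lay under that of cells that should lack the transcript.

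*Izumo4*, the family member without a transmembrane segment, was highest in spermatocytes, unlike the rest of its family. In pachytene to diplotene cells it stood at 481, 417 and 476 CPM, so the control was not the lowest library there. Over all cells it was higher with both hairpins, at 144, 203 and 192 CPM (1.41-fold, 1.36 to 1.46, and 1.33-fold, 1.29 to 1.38). With clusters weighted to the control's mix the log2 differences of 0.49 and 0.41 became 0.09 and 0.21. In round spermatids it stood at 207, 276 and 256 CPM and in elongating spermatids at 51.7, 84.8 and 89.1 CPM, higher with both hairpins in each class.

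*Dcst1* and *Dcst2* encode multipass membrane proteins that sperm need to fuse with the egg. *Dcst1* stood at 60.0, 58.9 and 48.5 CPM and *Dcst2* at 31.7, 32.3 and 22.9 CPM over all cells. For both genes the control and hairpin 1 libraries were level within counting error and hairpin 2 was lower, at 0.808-fold (0.762 to 0.857) for *Dcst1* and 0.722-fold (0.664 to 0.784) for *Dcst2*. Both genes were highest in cluster 8, as were *Spam1*, *Zp3r* and *Zpbp*. In cluster 8 *Dcst1* was at 336, 238 and 204 CPM and *Dcst2* at 173, 141 and 101 CPM, highest in the control.

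Within round spermatids hairpin 2 was the lowest of the 3 libraries for both *Dcst1* (167, 163 and 132 CPM) and *Dcst2* (79.9, 84.9 and 57.7 CPM). Across 46 cluster-by-library profiles their levels correlated at a Pearson r of 0.87 on the log2 scale, a description over profiles that share libraries. Each was closer to other members, *Dcst1* to *Izumo1* (0.93) and *Zp3r* (0.92), and *Dcst2* to *Zp3r* (0.95) and *Izumo1* (0.90). *Dcst2* had no UMI in the 21 control non-germ cells, which by a floor of 3 counts allows up to 8.33 CPM (the upper Poisson limit is 10.2 CPM). An annotated pseudogene, *Gm10702*, covers 1268 exon bases of *Dcst1* on the other strand. Whether counting used strand was not stated, and *Gm10702* has no gene row of its own. Any share of its reads in the *Dcst1* counts was not measured.

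*Spam1*, the hyaluronidase, stood at 57.1, 70.9 and 62.7 CPM over all cells, and 66.4%, 52.5% and 59.0% of its UMIs lay in round spermatids. Cluster 8 held 489, 311 and 323 CPM, cluster 3 held 246, 222 and 211 CPM, and cluster 1 held 62.7, 50.4 and 33.7 CPM. The control was the highest library in each of these 3 clusters. Yet over the whole round spermatid class the control was the lowest, at 160, 187 and 170 CPM.

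This turn in the direction of *Spam1* came with the mix of clusters. Of the control's round spermatids 195 of 360 were in cluster 1, where the transcript was scarce, against 134 of 404 and 90 of 405 in the hairpin libraries. With the clusters weighted to the control's mix, the log2 differences in round spermatids went from 0.22 and 0.08 to -0.22 and -0.37. Thinning cells to 10000 UMIs each left out 34, 212 and 121 round spermatids, so those kept are a different mix in each library. Among the 326, 192 and 284 kept, 33.7%, 29.2% and 26.1% had no *Spam1* UMI, where a Poisson spread of the same mean gives 15.2% in the control and 15.7% with hairpin 2.

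In leptotene to zygotene cells *Spam1* was at least 2-fold higher with hairpin 2 only, at 9.71, 14.1 and 27.6 CPM. In that class and direction 0.791% of the 7583 genes compared were so with hairpin 2. The non-germ cells held 5.55, 21.5 and 19.1 CPM of *Spam1*. With that level subtracted, the hairpin 2 log2 difference went from 1.42 to 0.89, under 2-fold, and hairpin 1 gave no value. The control level subtracted rests on few molecules, and the part of such a level in the difference was not tested.

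*Zp3r*, the acrosomal protein also known as sp56, stood at 111, 116 and 96.1 CPM over all cells and peaked sharply in cluster 8 at 598, 581 and 555 CPM, with counting intervals that overlapped. In round spermatids it stood at 290, 311 and 248 CPM, hairpin 2 below the control. The hairpin 1 log2 difference of 0.10 kept its sign under 5 of 9 alternatives and was -0.08 with the members kept in the clustering. In elongating spermatids (51.5, 51.9 and 52.7 CPM) the 3 libraries were level.

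*Zpbp*, which binds the zona and helps to compact the acrosome, was high from pachytene cells (632, 614 and 600 CPM) to round spermatids (636, 713 and 660 CPM). Over all cells it stood at 307, 391 and 357 CPM, higher with both hairpins by total-UMI scaling. With TMM factors the log2 differences went from 0.35 and 0.22 to 0.07 and -0.13, so the direction turned for hairpin 2. With the clusters weighted to the control's mix they were 0.09 and 0.09. The gene has 223 exon bases in common with *Spata48* on the other strand.

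Of the members, *Zpbp2*, the paralog of *Zpbp*, differed most from the control, at 232, 390 and 360 CPM over all cells. This was 1.68-fold (1.64 to 1.72) with hairpin 1 and 1.55-fold (1.51 to 1.59) with hairpin 2. Of all genes compared, 93.2% had a lower fold with hairpin 1 and 76.4% with hairpin 2. The median log2 differences over all genes were 0.23 and 0.25, so part of the rise was shared by most genes. *Zpbp2* was higher in both hairpin libraries under all 9 alternatives of scaling, weighting, pseudocount and depth. The log2 differences of 0.75 and 0.63 became 0.20 and 0.31 with the clusters weighted to the control's mix.

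Where *Zpbp2* was most abundant the libraries were level. Pachytene to diplotene cells held 947, 943 and 974 CPM, and both ratio intervals contained 1. The libraries parted in round spermatids (276, 402 and 414 CPM) and further in elongating and condensing spermatids (57.3, 116 and 128 CPM). There *Zpbp2* was the only one of the 10 genes at least 2-fold higher with both hairpins, and 1.76% of the 5156 genes compared in that class were. Its hairpin 1 value lay at that limit and fell below 2-fold under 8 of 9 alternatives (log2 0.93 with TMM factors and 0.79 with the clusters weighted to the control's mix). Its hairpin 2 value did so under 3 of 9 (0.98 with TMM factors). It was higher with both hairpins in each of the 4 elongating clusters, for example 44.8, 64.4 and 89.6 CPM in cluster 5 and 96.9, 180 and 206 CPM in cluster 0.

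**Figure D3:**
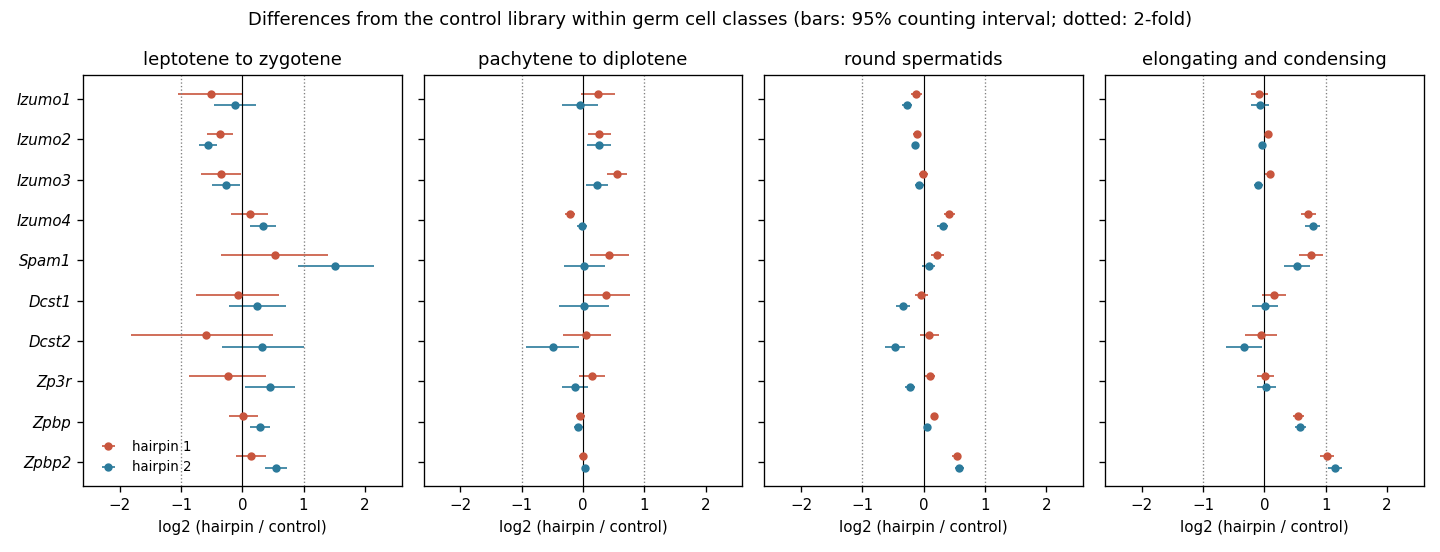
Log2 ratio of each hairpin library to the control within 4 germ cell classes, with 95% counting intervals; dotted lines mark 2-fold. *Zpbp2*, *Izumo4*, *Zpbp* and *Spam1* lie to the right of 0 with both hairpins in elongating and condensing spermatids, where *Zpbp2* reaches 2.02-fold and 2.23-fold, while *Zpbp2* lies at 0 in pachytene to diplotene cells.

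Cells that should lack these transcripts also had higher CPM of them in the hairpin libraries. In the non-germ cells the CPM of all 10 genes was above the control with both hairpins, and for 2 of the 10, *Zpbp* and *Zpbp2*, so were both ratio intervals. No share over all genes is given for these cells, so the counts have no background. The non-germ mix differed too, with 7, 37 and 22 cells in cluster 11, 11, 17 and 62 in cluster 15, and 3, 42 and 99 in cluster 16. In the non-germ cells *Zpbp2* stood at 19.4, 99.3 and 92.0 CPM, *Zpbp* at 52.7, 87.7 and 84.5 CPM, and *Izumo4* at 38.9, 70.7 and 54.6 CPM. In the control the first of these rests on 7 UMIs in 21 cells. A *Zpbp2* UMI was seen in 28.6%, 66.7% and 77.6% of non-germ cells, at median depths of 13957, 9685.5 and 13007 UMIs, and in 90.0%, 94.6% and 98.3% of round spermatids. After thinning, which left out 0, 53 and 39 non-germ cells, the shares were 19.0%, 55.8% and 56.2%.

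With the level of the non-germ cells subtracted, *Zpbp2* in elongating spermatids was 37.9, 16.6 and 35.7 CPM, no longer higher with either hairpin. *Izumo4* came to 12.9, 14.2 and 34.5 CPM and *Zpbp* to 53.3, 67.7 and 74.7 CPM, still above the control. *Spam1* came to 14.4, 12.5 and 9.80 CPM, below it. The control level subtracted for *Spam1*, 5.55 CPM, lies under the 8.33 CPM that 3 counts make in those cells, so this turn rests on few molecules. In round spermatids the subtraction left *Zpbp2* higher with both hairpins (log2 0.24 and 0.32).

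**Figure D4:**
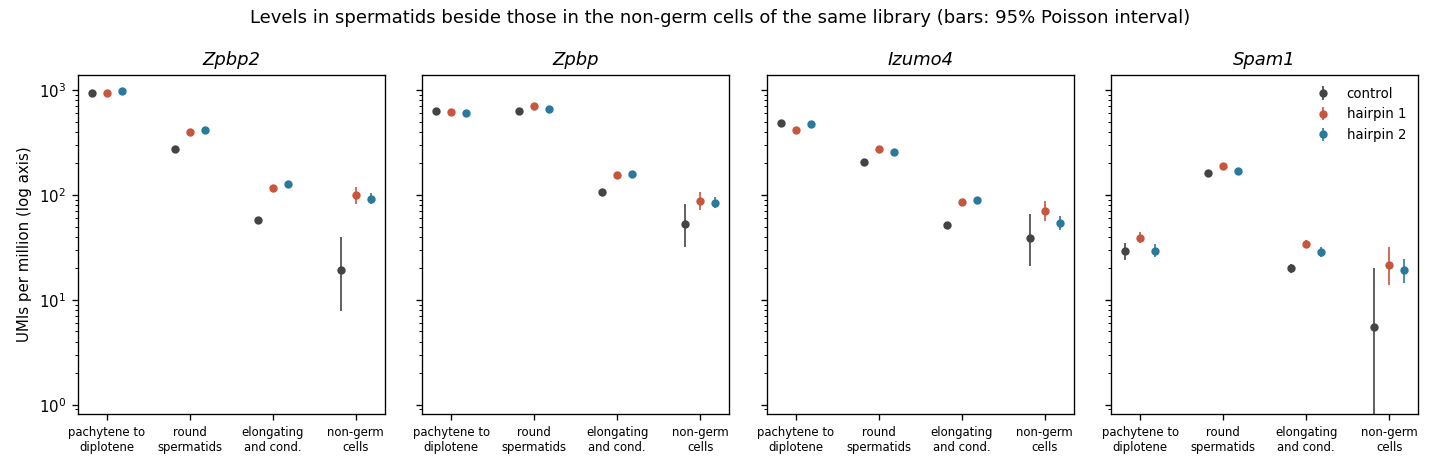
Levels of 4 of the genes in 3 germ cell classes and in the non-germ cells of the same library, in CPM on a log axis, with 95% Poisson intervals. For *Zpbp2* the hairpin libraries lie above the control in elongating spermatids (57.3, 116 and 128 CPM) and in non-germ cells (19.4, 99.3 and 92.0 CPM), and level with it in pachytene to diplotene cells.

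By class, ratio intervals lay above the control with both hairpins for 3 of the 10 genes in round spermatids (*Izumo4*, *Zpbp* and *Zpbp2*), beside 24.9% of all genes compared there. They lay below it for 2 (*Izumo1* and *Izumo2*), beside 19.0%. In elongating and condensing spermatids they lay above for 4 (*Izumo4*, *Spam1*, *Zpbp* and *Zpbp2*), beside 26.2%, and below for 0, beside 23.3%. With TMM factors *Zpbp* in round spermatids turned to a log2 difference of -0.03 with hairpin 2. With the clusters weighted to the control's mix *Izumo1* in round spermatids went from -0.12 to 0.0020 with hairpin 1.

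In pachytene to diplotene cells the intervals lay above the control for 2 genes (*Izumo2* and *Izumo3*), beside 7.5% of all, and below it for 0, beside 8.62%. In leptotene to zygotene cells they lay above for 0, beside 10.4%, and below for the same 2 genes, beside 11.2%. The only gene to miss the filter on low values in these 4 classes was *Dcst2*, in leptotene to zygotene cells. Spermatogonia were not compared, since the control held 26 of them.

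Apart from *Zpbp2* in elongating spermatids, whose 2-fold call was lost under most alternatives, no member was 2-fold higher or lower with both hairpins in any of the 4 classes. The shares of all genes 2-fold higher and lower with both were 0.251% and 0.725% in leptotene to zygotene cells, 0.147% and 0.162% in pachytene to diplotene cells, and 0.301% and 0.256% in round spermatids. In elongating and condensing spermatids 0.155% were 2-fold lower.

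Other genes of fertilization were described from a list. Of 46 listed genes all 46 were found and 36 passed the filter. With both hairpins 0 were at least 2-fold higher and 1 was at least 2-fold lower, beside 1.23% and 0.495% of all genes compared. Whatever the hairpin 1 value, 3 were at least 2-fold lower with hairpin 2, that 1 gene included, beside 2.19% of all. The median log2 differences of the 36 were -0.05 and -0.06, beside 0.23 and 0.25 over all genes, and -0.32 and -0.41 with TMM factors. The gene lower with both hairpins was *Cd46*, a complement regulator of the acrosomal membrane in mice, at 31.0, 14.6 and 11.4 CPM. It was also a leading gene of cluster 1, which held 195, 134 and 90 cells. *Cd46* was lower with both hairpins within round spermatids (66.3, 44.0 and 29.3 CPM) and within elongating and condensing spermatids (28.8, 14.1 and 14.4 CPM). The cause was not tested.

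Among the 18 genes of the ADAM complex and its chaperones that passed, those lower with both hairpins included *Prss37* (253, 151 and 106 CPM), a protease-like protein needed for ADAM3 maturation, and *Calr3* (202, 124 and 93.4 CPM), a calreticulin of spermatids. *Adam6a* (71.2, 41.5 and 36.1 CPM), *Adam6b* (36.2, 20.3 and 18.7 CPM) and *Pmis2* (340, 255 and 217 CPM) were lower too. *Adam1b* stood higher at 36.7, 61.1 and 53.0 CPM. Of the 18 genes, 8 were below the control with both hairpins by any margin and 5 above it. The abundant *Cmtm2a* (1079, 1262 and 1137 CPM), *Cmtm2b* (704, 892 and 671 CPM) and *Lypd4* (577, 615 and 577 CPM) differed less.

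Of the hyaluronidases beside *Spam1*, *Hyal5* was lower with both hairpins at 113, 78.9 and 81.6 CPM and *Hyal6* higher at 27.1, 41.6 and 37.7 CPM. *Spesp1*, an equatorial segment protein, stood at 104, 157 and 142 CPM and *Crisp2* at 2789, 2606 and 2370 CPM. Of the other sperm fusion factors, 4 of 5 passed. *1700034O15Rik*, which is *Sof1*, stood at 753, 620 and 585 CPM and *Spaca6* at 51.8, 42.3 and 38.8 CPM, while *Tmem95* was near the limit of detection at 0.371, 0.548 and 0.560 CPM. None of the 5 egg-side genes, *Izumo1r* among them, passed.

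The 2 genes most like each member were sought among the 7068 genes by Pearson correlation of log2 levels over the 46 profiles, which share libraries. *Izumo1* was nearest to *Fam209* and *Tmem190* (r 0.98 for both), *Izumo2* to *Tssk2* and *Tmem247* (0.98 for both), and *Izumo3* to *Pde1a* and *1700095B10Rik* (0.96 for both). *Izumo4* was nearest to *Slc22a16* and *Spesp1* (0.97 for both) and *Dcst1* to *Pdilt* and *Catsper3* (0.96 for both). The gene nearest to *Dcst2* was another member, *Zp3r* (0.95), ahead of *1700061G19Rik* (0.94).

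*Zp3r* itself was nearest to *Acrv1* and *Spaca1* (0.97 for both), which also encode acrosomal proteins. *Zpbp* was nearest to *Gm128* (0.99) and *Tmem89* (0.97), and *Zpbp2* to *Phospho2* and *Bbof1* (0.98 for both). *Spam1* had the least close neighbours, *Cldn34b2* and *1700124L16Rik* (0.93 for both). Among the members, *Izumo4* was close to *Zpbp* (0.95) and *Zpbp2* (0.94), and *Izumo2* and *Zpbp2* were furthest apart (-0.20).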

How the data were processed

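Single-cell RNA was measured in 3 libraries. The table that the authors deposited holds natural log (ln) values; from the values, each cell had been scaled to 10000 and 1 added before the log. The submitters' processing notes name mm10, Cell Ranger 1.3.1 and Seurat 2.0.0. Per the labels' protocols, libraries used the 10x Genomics 3′ kit V2. Cell filters, doublet removal, annotation and counting strand were not stated in these sources.

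Undoing the log gave whole UMIs for 100.0% of 20140203 non-zero values within 0.01, so UMIs were summed by library and class. Column names were matched to the hairpins by their last digit alone, and if that were wrong the hairpins would change places. No cell was removed and no doublet caller was run. Libraries shared 6, 5 and 7 cell barcodes.

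Cells were clustered with scanpy 1.11.5 (2000 variable genes, 30 components, 15 neighbours, Leiden resolution 0.8) without the 10 genes and *Gm4665*. Clusters were named where at least 3 fixed markers were raised 1.5-fold. Clusters 10 and 4 stayed unnamed because their 10 leading genes held more markers of another list than of the best one. A class was compared with at least 50 cells in each library, and a gene with a mean of 10 CPM and 30 UMIs. Log2 differences used a pseudocount of 1 CPM, and ratios none. TMM and median-of-ratios factors were computed in Python. The fold calculation was checked on simulated counts.

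Members, gene lists and tests were chosen with earlier results of these data known. All members are named, with *Gm4665* as the target. Of the related genes, up to 10 were named by the largest smaller fold in 1 direction with both hairpins and 5 by level, and 2 genes by likeness to each member. *Spaca6*, *Tmem95*, *Izumo1r* and *Rasip1* were named after their values were seen. Alternatives covered scaling, cell mix, thinning, pseudocount, filters and clustering.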

Additional observations from a re-analysis of the deposited data

Results flagged for a closer look

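*Izumo2* differed in opposite directions between germ cell classes with both hairpins, and the difference between classes was not tested. Its log2 difference from the control was 0.27 (hairpin 1) and 0.26 (hairpin 2) in pachytene to diplotene spermatocytes. It was -0.35 and -0.56 in leptotene to zygotene spermatocytes, and -0.12 and -0.13 in round spermatids. At Leiden resolution 1.2 the hairpin 1 values became -0.28 in pachytene to diplotene and 0.09 in leptotene to zygotene spermatocytes, both of the other sign. With the non-germ level subtracted, the hairpin 2 value in pachytene to diplotene spermatocytes became -0.27, and hairpin 1 gave no value.

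*Izumo3* likewise was higher with both hairpins in pachytene to diplotene spermatocytes, at 0.55 and 0.22, and lower in leptotene to zygotene spermatocytes, at -0.34 and -0.27. This difference between classes was not tested either. The signs of all 4 values were the same under the alternatives that gave a value. With the non-germ level subtracted, hairpin 1 in leptotene to zygotene spermatocytes gave none. Its level there came to -5.80 CPM, beside 43.0 CPM in the control.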

How the results depend on the processing

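No paired analysis was possible because each group was 1 library, and for the same reason no replicate could be left out. Of the 20 log2 differences over all cells, 11 kept their sign under all 9 alternatives, and of the 80 by class, 35 did under every alternative that gave a value, those chosen after seeing the data included. With a fold of 1.5 in place of 2, the count of members higher over all cells went from 0 to 1 with each hairpin (*Zpbp2*). The share of all genes past 1.5-fold is not given, so this count has no background. Of all genes compared, 93.2% had a lower fold than *Zpbp2* with hairpin 1 and 76.4% with hairpin 2. The count of related genes at least 2-fold lower with hairpin 1 was 1, and became 4 with TMM factors, 4 with median-of-ratios factors and 0 with classes weighted to the control mix. With hairpin 2 it was 3, and became 5, 6 and 1. Without a filter on low values, 1 related gene was 2-fold higher with hairpin 2 in place of 0. By total UMIs 1.47% and 2.19% of all genes were at least 2-fold lower with hairpins 1 and 2. No such share is given under the alternatives. The scaling factors lowered the folds of all genes. Their medians of 0.23 and 0.25 became -0.04 and -0.09 with TMM factors, and -0.04 and -0.14 with median-of-ratios factors. *Zpbp2* stayed 2-fold higher in elongating and condensing spermatids under 1 of 9 alternatives with hairpin 1 and 6 of 9 with hairpin 2, and *Spam1* with hairpin 2 in leptotene to zygotene cells under 7 of 8. *Zpbp2* in elongating and condensing spermatids turned to log2 differences of -1.14 and -0.083 when the non-germ level was subtracted, an alternative chosen after seeing the data. The difference of mean ln values had the other sign for *Izumo3* and *Dcst1* with hairpin 1 (-0.052 and 0.0035). The causes were not tested. Depth limits the non-germ values of the control, with 21 cells.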
